A study of Homo sapiens with 74 samples.

Results

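Messenger RNA of 32 genes of the ATF4 program of stress and amino acid metabolism was measured in HEK293T, an established line derived from human embryonic kidney and made with the SV40 large T antigen. The genes were listed by name and looked up in the RNA count table. The rule holds no measured value, but the list was drawn up with earlier results of these data known. All 32 were found among its 39037 genes, 1 Ensembl identifier each, and all 32 passed the low-count filter that left 17740 genes for testing. They were followed in 8 RNA libraries, 2 from each of 4 groups: cells that received DamV133A-LMNB1 (fusion cells), cells that received DamV133A, cells that received m6A-Tracer, and untreated cells with no transfection. DamV133A is a variant of the bacterial adenine methylase Dam, and DamV133A-LMNB1 is that enzyme fused to lamin B1 of the nuclear lamina, so that DNA near the lamina becomes methylated and can be mapped (DamID). m6A-Tracer is a protein that binds methylated adenine in GATC. Transfection was transient, and the labels give 20 hours of Shield-1, a small molecule that protects proteins tagged with a destabilising FKBP12 domain from degradation, in 1 text shared by all samples, without saying whether the untreated cells received it. The labels do not say that the 2 libraries of a group came from separate cultures, so p-values measure the spread between these libraries, which may be technical. In bulk RNA, a lower level in each cell cannot be told apart from fewer cells with the level.

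ATF4 is a transcription factor whose translation increases when the initiation factor eIF2 is phosphorylated by one of the stress kinases PERK, GCN2, PKR or HRI, a route known as the integrated stress response. Its targets include other transcription factors, enzymes that make serine, glycine, asparagine and proline, one-carbon enzymes of mitochondria, and transporters that bring amino acids into the cell. ATF4 binds as a heterodimer, often with a C/EBP protein, at a composite of a site for each family. Because ATF4 is controlled largely at translation, its mRNA is not a measure of its protein.

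Promoter sequences are shown for the members with a full composite or cyclic AMP response element (CRE) letter match upstream of the start, since these are elements that the ATF4 and CREB families are known to bind. RefSeq promoter windows (GRCh38.p14), 250 bases before to 50 bases after the start, were at hand for 26 of the 32 members. The composite TGATGNAA, read on both strands, occurred in 6 of the 26 (23.1%) and in 3.67% of 27305 promoters. Its matches in SLC7A1 and SLC3A2 lay 7 to 14 and 37 to 44 bases after the first transcribed base. The palindromic CRE TGACGTCA occurred in 1 of 26 members (3.85%), PPP1R15A, and in 1.98% of all promoters. The ER stress element, CCAAT and CCACG with 9 bases between them, occurred in none of the 26 members and in 0.0806% of all promoters. No match of one element overlapped a match of another in the members, and a match describes letters and not binding. The windows below run 5′ to 3′ on the strand of the gene, with the match in capitals and 40 bases on either side. In CHAC1 the composite is on the opposite strand.
ATF3, chr1:212565176-212565263, plus strand: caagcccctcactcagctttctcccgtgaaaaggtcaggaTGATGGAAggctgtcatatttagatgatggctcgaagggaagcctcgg
CHAC1, chr15:40953222-40953309, plus strand: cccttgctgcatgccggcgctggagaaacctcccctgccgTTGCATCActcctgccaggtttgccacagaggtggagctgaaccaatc
MTHFD1L, chr6:150866317-150866404, plus strand: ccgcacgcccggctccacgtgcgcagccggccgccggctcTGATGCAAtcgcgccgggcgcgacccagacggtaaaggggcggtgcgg
ASNS, chr7:97872429-97872516, minus strand: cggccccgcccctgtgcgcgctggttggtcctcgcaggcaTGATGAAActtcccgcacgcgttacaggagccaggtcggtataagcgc
PPP1R15A (CRE), chr19:48872323-48872410, plus strand: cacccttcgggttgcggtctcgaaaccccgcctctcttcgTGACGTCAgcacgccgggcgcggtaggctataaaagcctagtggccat

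The libraries held 39690886 to 51455298 estimated counts. LMNB1, which the fusion construct carries, had 2548 and 2056 CPM (a library's counts scaled to a common total, with TMM factors) in fusion cells, 249.6 and 253.3 CPM in DamV133A cells, 250.8 and 257.4 CPM in m6A-Tracer cells, and 766.6 and 768.4 CPM in untreated cells. It was therefore highest in the group labelled with the fusion, and it was also 0.328-fold in DamV133A cells and 0.331-fold in m6A-Tracer cells relative to untreated cells (edgeR adjusted p = 6.92e-05 and 0.000191). Library 2 of the fusion cells stood apart from library 1. The absolute log2 difference between the 2 libraries of a group had a median over the members of 0.154 in fusion cells, against 0.0404 in DamV133A, 0.0386 in m6A-Tracer and 0.0338 in untreated cells, and 6 members differed by 0.3 or more in fusion cells. Of all genes 35.5% differed by that much in fusion cells, against 17.1% in DamV133A, 17.9% in m6A-Tracer and 18% in untreated cells. All 8 markers of the line (PAX2, VIM, NEFM, NEFL, INA, KRT8, KRT18 and GATA3) were at 1 CPM or more in every library, with a sum of 949.6 to 1375 CPM. Of 10 markers of other cells, 7 were under 1 CPM in every library, while COL1A1 was at 24.5 to 29.8 CPM and COL3A1 at 1.97 to 3.81 CPM, and their part in the results was not tested.

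**Figure D1:**
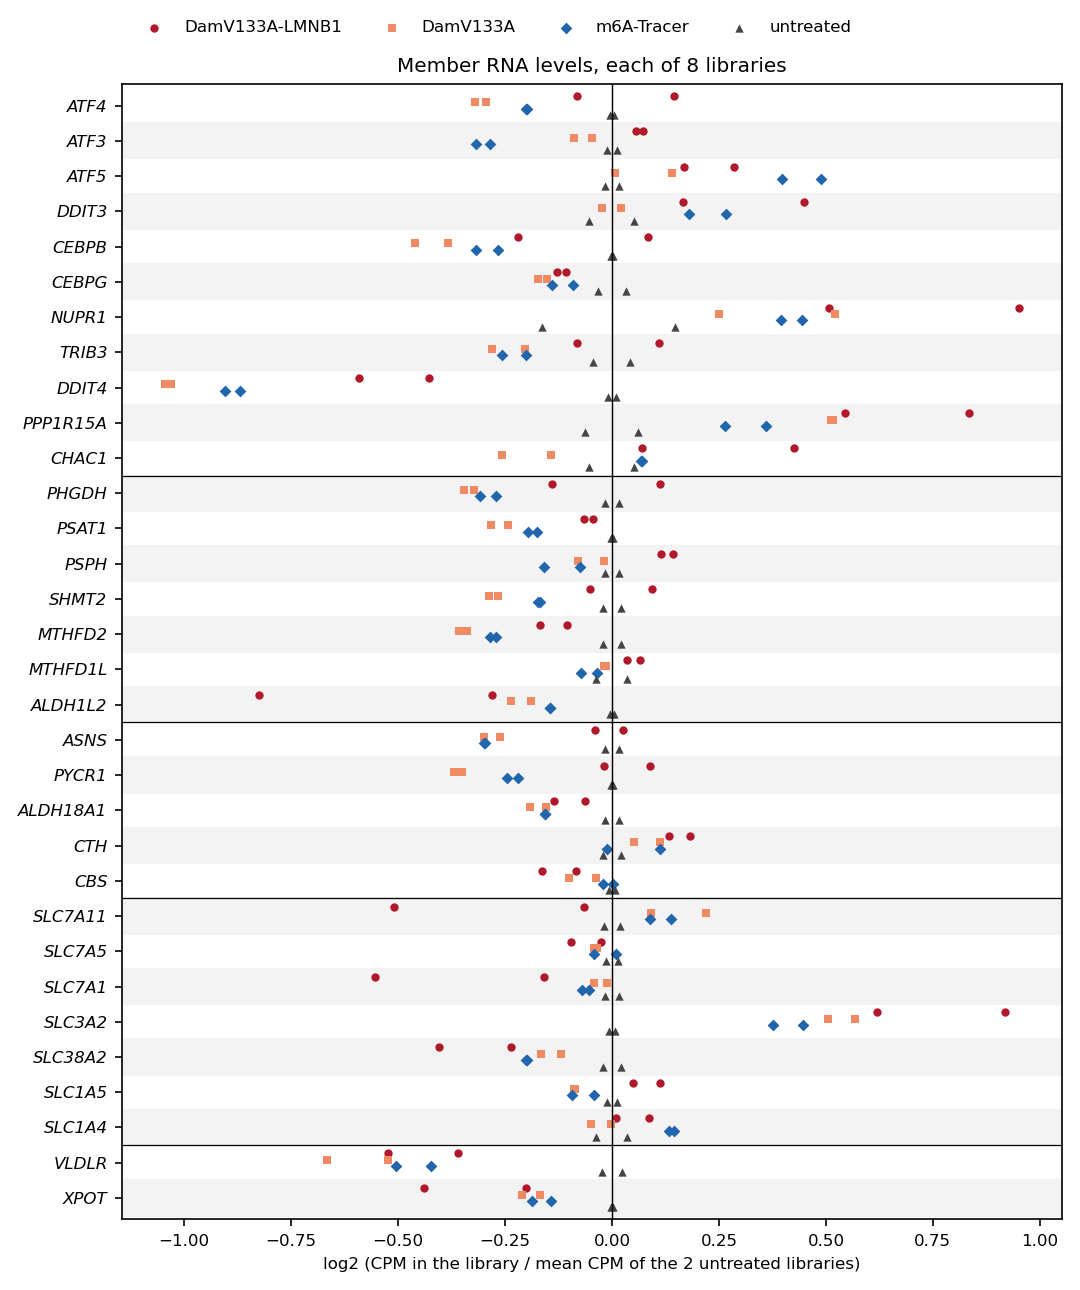
RNA level of each member in each library, as the log2 ratio of its CPM to the mean CPM of the 2 untreated libraries, with horizontal lines between the role groups. DDIT4 and VLDLR are among the members left of 0 in all 6 transfected libraries, and SLC3A2 and PPP1R15A among those right of 0. ALDH1L2 has the widest fusion pair, at 74.6 and 51.2 CPM.

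The first 3 comparisons asked how each transfected group differed from untreated cells. In DamV133A cells 11 of 32 members fell and 2 rose, in m6A-Tracer cells 8 fell and 2 rose, and in fusion cells 5 fell and 3 rose. Over all tested genes 13.1% fell and 13.6% rose in DamV133A cells, 4.67% fell and 7.62% rose in m6A-Tracer cells, and 7.56% fell and 11.4% rose in fusion cells. The median log2 fold change of the members was -0.15 in DamV133A, -0.13 in m6A-Tracer and 0.00 in fusion cells, against 0.01, 0.01 and 0.00 for all tested genes. The share of members that fell thus stood above the share of all genes in each of the 3 comparisons, which share their 2 untreated libraries. The changes were small: absolute log2 fold changes reached 0.5 in 4, 1 and 5 of the members that passed the test in DamV133A, m6A-Tracer and fusion cells. Leaving out any one of the 8 libraries moved at least 1 of these counts of 13, 10 and 8 by more than 1.5 times. In DamV133A, m6A-Tracer and fusion cells, 23, 22 and 22 members passed without fusion library 1, and 22, 23 and 14 without fusion library 2. It was 5, 6 and 5 without DamV133A library 1, 7, 6 and 5 without DamV133A library 2, and 12, 1 and 5 without either m6A-Tracer library. It was 7, 1 and 3 without untreated library 1, and 5, 1 and 2 without untreated library 2. The calls over all genes moved with them: in the same order, 4730, 2181 and 3361 genes were called with all libraries, 8720, 6908 and 8415 without fusion library 1, 8722, 6833 and 5345 when library 2 of that group was left out, and 1697, 311 and 590 without untreated library 2.

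**Figure D2:**
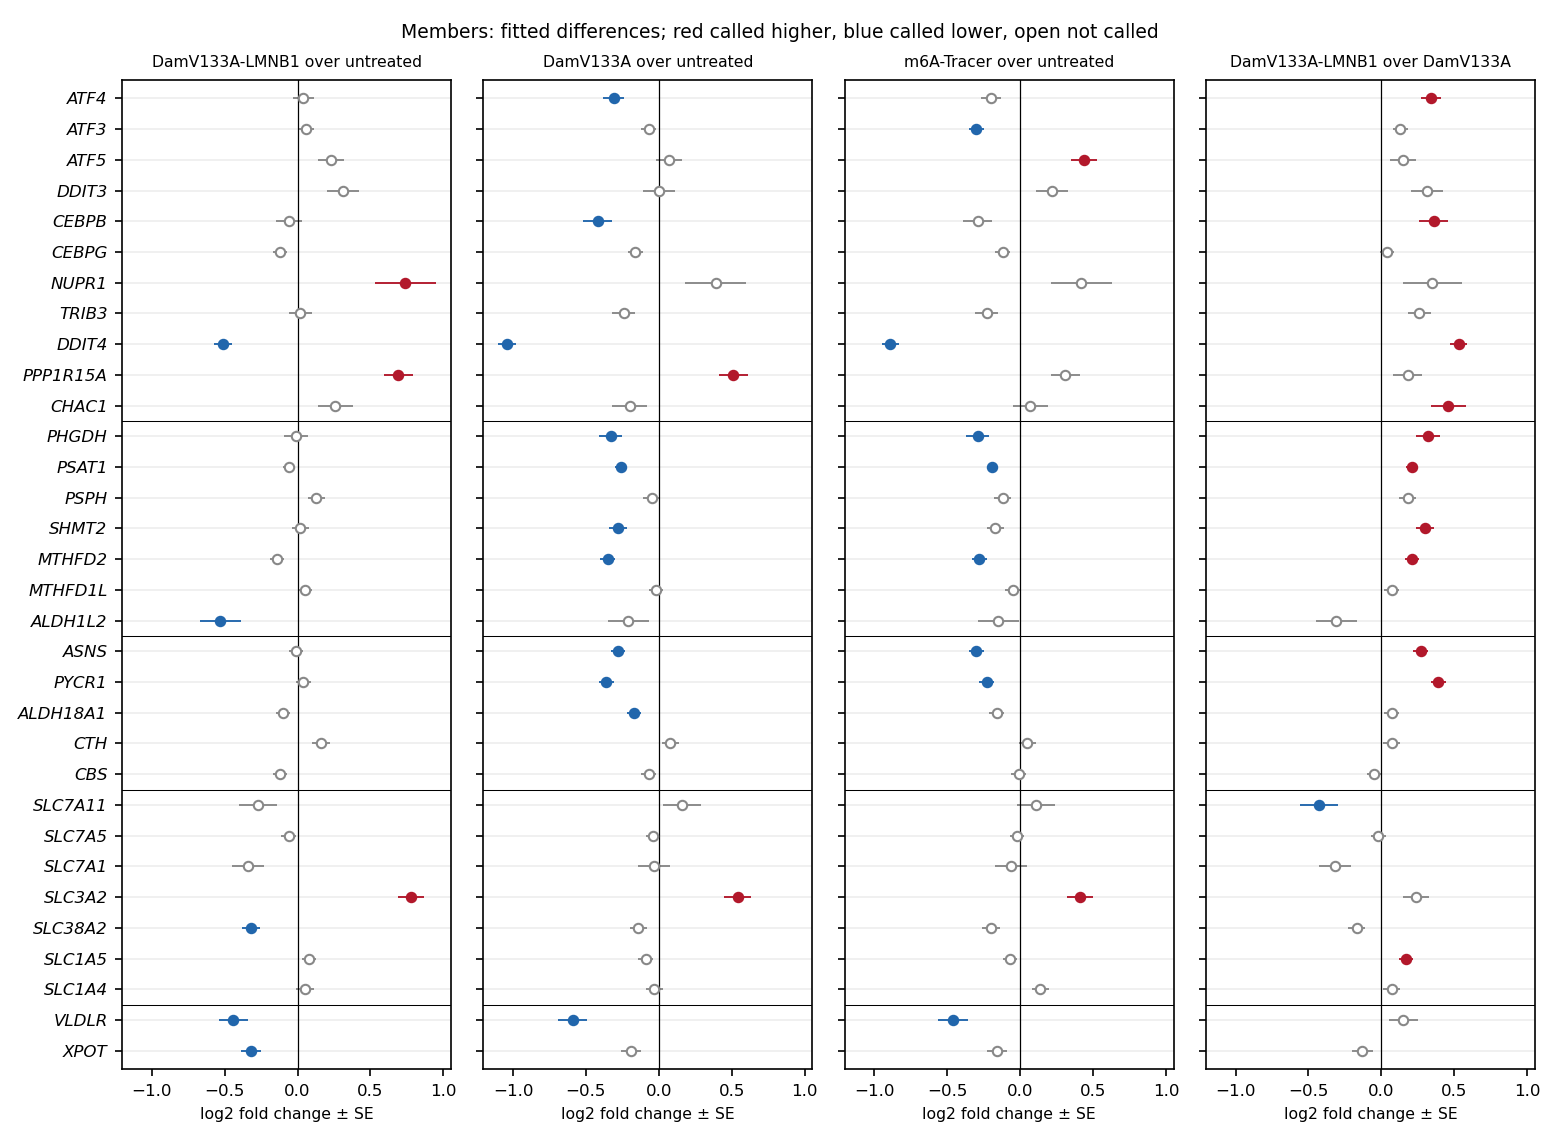
Fitted log2 fold change ± SE of each member in 4 comparisons (edgeR, 2 libraries a group), with filled points for members past an adjusted p of 0.05. PHGDH, ASNS and PYCR1 lie left of 0 in DamV133A and m6A-Tracer cells, and at -0.01, -0.01 and 0.04 in fusion cells.

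Among the transcription factors and stress regulators, DDIT4, an inhibitor of the mTORC1 growth kinase, fell furthest in DamV133A and m6A-Tracer cells. It had 377.4 and 423.0 CPM in fusion cells, 275.6 and 278.2 CPM in DamV133A cells, 303.9 and 311.5 CPM in m6A-Tracer cells, and 572.6 and 564.8 CPM in untreated cells. All 6 transfected libraries lay under both untreated ones, and the groups did not overlap. In DamV133A, m6A-Tracer and fusion cells, 36.2%, 33.1% and 29.2% of all tested genes had both libraries under the untreated pair. DDIT4 changed by -1.04 ± 0.06 on the log2 scale in DamV133A cells (SE, edgeR adjusted p = 8.32e-05), by -0.89 ± 0.06 in m6A-Tracer cells (adjusted p = 0.000276) and by -0.51 ± 0.06 in fusion cells (adjusted p = 0.00203). The first 2 calls held under all 16 alternative settings. The fall in fusion cells missed the threshold in 1 of them, a fit of 4 libraries alone (adjusted p = 0.0577).

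PPP1R15A (GADD34), the stress-inducible subunit that directs a phosphatase to eIF2, rose in both groups with Dam. It had 67.9 and 82.9 CPM in fusion cells, 66.3 and 66.6 CPM in DamV133A cells, 59.7 and 55.9 CPM in m6A-Tracer cells, and 48.5 and 44.5 CPM in untreated cells. Every transfected library was above the untreated pair. Both libraries of the group were above that pair for 29.4%, 37% and 35.3% of all tested genes in fusion, DamV133A and m6A-Tracer cells. The log2 fold change was 0.69 ± 0.10 in fusion cells (edgeR adjusted p = 0.00383), 0.51 ± 0.10 in DamV133A cells (adjusted p = 0.00775) and 0.31 ± 0.10 in m6A-Tracer cells, where it missed the threshold (adjusted p = 0.0758). NUPR1, a small stress-induced chromatin protein, had low counts, with 2.85 and 3.88 CPM in fusion cells and 2.22 and 1.79 CPM in untreated cells. Its rise of 0.74 ± 0.21 in fusion cells passed narrowly (adjusted p = 0.0418) and held under 6 of 16 settings.

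ATF4 itself had 932.6 and 1093 CPM in fusion cells, 804.9 and 791.1 CPM in DamV133A cells, 859.4 and 860.7 CPM in m6A-Tracer cells, and 991.3 and 984.0 CPM in untreated cells. The DamV133A and m6A-Tracer libraries lay under the untreated ones, while the fusion libraries lay on either side of them. ATF4 fell by 0.31 on the log2 scale in DamV133A cells (edgeR adjusted p = 0.0144), and its value was -0.20 in m6A-Tracer cells (adjusted p = 0.0973) and 0.04 in fusion cells (adjusted p = 0.746). CEBPB, a C/EBP partner of ATF4, fell by 0.42 in DamV133A cells. ATF3, an ATF4 target that represses transcription as a homodimer, fell by 0.30 in m6A-Tracer cells, in which ATF5, a related factor that is also controlled at translation, rose by 0.44. DDIT3 (CHOP), the factor tied to cell death under lasting stress, had 11.7 and 14.3 CPM in fusion cells, 10.3 and 10.6 CPM in DamV133A cells, 11.9 and 12.6 CPM in m6A-Tracer cells, and 10.9 and 10.1 CPM in untreated cells. It passed in none of the 6 comparisons made here, nor did CEBPG, another ATF4 partner, or TRIB3, a pseudokinase that feeds back on ATF4. CHAC1, which degrades glutathione, passed against untreated cells in no group.

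Of the 7 serine, glycine and one-carbon enzymes, 4 fell in DamV133A cells, 3 in m6A-Tracer cells and 1 in fusion cells, and none rose, against 13.1%, 4.67% and 7.56% of all genes that fell. The difference between these counts was not tested. PHGDH, which opens serine synthesis, had 557.5 and 663.4 CPM in fusion cells, 491.4 and 483.4 CPM in DamV133A cells, 509.4 and 496.3 CPM in m6A-Tracer cells, and 607.6 and 620.9 CPM in untreated cells. It fell by 0.33 in DamV133A cells (edgeR adjusted p = 0.0152) and by 0.29 in m6A-Tracer cells (adjusted p = 0.0448), and the 2 fusion libraries lay on either side of the untreated pair. PSAT1, the aminotransferase of the next step, fell by 0.26 and 0.19 in DamV133A and m6A-Tracer cells, and PSPH, which ends the pathway, passed in neither. The m6A-Tracer calls of PHGDH and PSAT1 held under 6 and 7 of 16 alternative settings, and their DamV133A calls under 11 and 12. MTHFD2, a mitochondrial folate dehydrogenase, had 314.6 and 328.7 CPM in fusion cells, 279.3 and 276.1 CPM in DamV133A cells, 290.3 and 293.0 CPM in m6A-Tracer cells, and 348.4 and 358.6 CPM in untreated cells. It fell by 0.35 in DamV133A cells (adjusted p = 0.00208) and by 0.28 in m6A-Tracer cells (adjusted p = 0.00976). SHMT2, the mitochondrial serine hydroxymethyltransferase, fell by 0.28 in DamV133A cells, while MTHFD1L, which releases formate, passed in no comparison. ALDH1L2, a mitochondrial folate oxidase, fell by 0.53 in fusion cells (adjusted p = 0.0399), where it had 74.6 and 51.2 CPM against 90.5 and 91.0 CPM in untreated cells. Its log2 fold change was -0.28 without fusion library 2 and -0.81 without fusion library 1.

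Among the 5 enzymes of asparagine, proline and transsulfuration, 3 fell in DamV133A cells, 2 in m6A-Tracer cells and none in fusion cells. In the same order 13.1%, 4.67% and 7.56% of all genes fell, and the difference was not tested. ASNS, asparagine synthetase, had 292.7 and 306.4 CPM in fusion cells, 244.7 and 251.1 CPM in DamV133A cells, 244.5 and 245.2 CPM in m6A-Tracer cells, and 297.8 and 304.3 CPM in untreated cells. The DamV133A and m6A-Tracer pairs lay clearly under the other 4 libraries, at -0.28 ± 0.05 (edgeR adjusted p = 0.00505) and -0.30 ± 0.05 (adjusted p = 0.0082), and fusion cells were at -0.01 ± 0.05. PYCR1, which makes proline, had 256.3 and 276.2 CPM in fusion cells, 203.9 and 201.2 CPM in DamV133A cells, 223.0 and 219.1 CPM in m6A-Tracer cells, and 259.5 and 260.2 CPM in untreated cells. It fell by 0.36 and 0.23 in DamV133A and m6A-Tracer cells, calls that held under 15 and 8 of 16 alternative settings. ALDH18A1, the first enzyme of proline synthesis, fell by 0.17 in DamV133A cells, a call that held under 6 of 16 settings. CTH and CBS, which turn homocysteine into cysteine, passed in no comparison. CBS has a near-identical copy, CBSL, which held 26.94% to 30.72% of their summed CPM, so the division of reads between them is uncertain. CBSL fell by 0.25 in DamV133A cells (edgeR adjusted p = 0.0279) and did not pass in fusion (-0.13) or m6A-Tracer cells (-0.17). Summed CPM was 441 and 477 in fusion, 468 and 452 in DamV133A, 485 and 479 in m6A-Tracer and 504 and 497 in untreated cells. The sum was not tested. ASNSP1, a pseudogene of ASNS, rose in all 3 transfected groups, by 0.93 in fusion, 0.67 in DamV133A and 0.82 in m6A-Tracer cells. It had 4.00 and 4.99 CPM in fusion cells and 2.34 and 2.38 CPM in untreated cells, and its part in the ASNS values was not tested.

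SLC3A2 stood out among the 7 amino acid transporters. It encodes the heavy chain (4F2hc) that carries light chains such as SLC7A5, which takes up large neutral amino acids, and SLC7A11, which takes up cystine, to the plasma membrane. SLC3A2 had 406.1 and 499.6 CPM in fusion cells, 392.1 and 375.1 CPM in DamV133A cells, 360.4 and 343.4 CPM in m6A-Tracer cells, and 265.6 and 263.3 CPM in untreated cells. All transfected libraries were above both untreated ones, as 29.4% to 37% of all tested genes were in any one of the 3 comparisons. It rose by 0.78 ± 0.09 in fusion cells (edgeR adjusted p = 0.0019), by 0.54 ± 0.09 in DamV133A cells (adjusted p = 0.0047) and by 0.41 ± 0.09 in m6A-Tracer cells (adjusted p = 0.0241). The rises in fusion and DamV133A cells held under all 16 alternative settings, and the rise in m6A-Tracer cells under 9.

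Neither light chain passed against untreated cells. SLC7A11 was at -0.27 ± 0.13 in fusion cells, 0.16 ± 0.13 in DamV133A cells and 0.11 ± 0.13 in m6A-Tracer cells (edgeR adjusted p = 0.174, 0.394 and 0.601). SLC7A5 had 424.5 and 404.5 CPM in fusion cells, 419.8 and 421.5 CPM in DamV133A cells, 435.3 and 420.0 CPM in m6A-Tracer cells, and 436.3 and 428.3 CPM in untreated cells. Its log2 fold changes of -0.06 ± 0.05, -0.04 ± 0.05 and -0.02 ± 0.05 in fusion, DamV133A and m6A-Tracer cells did not pass. SLC7A5P1, a pseudogene of SLC7A5, rose by 2.23, 2.06 and 1.73 in the same order, to 7.67 and 7.73 CPM in fusion cells, 6.63 and 7.11 CPM in DamV133A cells and 6.25 and 4.71 CPM in m6A-Tracer cells, against 1.81 and 1.47 CPM in untreated cells. Reads can be shared by such copies, and whether these come from the pseudogene was not tested. SLC38A2, a sodium-coupled transporter of small neutral amino acids, fell by 0.32 in fusion cells (edgeR adjusted p = 0.0136). SLC7A1, the transporter of cationic amino acids, SLC1A4 and SLC1A5, both exchangers of neutral amino acids, passed against untreated cells in no group.

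VLDLR, a lipoprotein receptor, and XPOT, which exports tRNA from the nucleus, make up the rest of the 32. VLDLR had 11.0 and 9.82 CPM in fusion cells, 8.90 and 9.82 CPM in DamV133A cells, 10.54 and 9.95 CPM in m6A-Tracer cells, and 14.4 and 13.9 CPM in untreated cells. It fell by 0.59 in DamV133A cells (edgeR adjusted p = 0.00455), under all 16 alternative settings, by 0.46 in m6A-Tracer cells (adjusted p = 0.0221) and by 0.44 in fusion cells (adjusted p = 0.0202). XPOT fell by 0.32 in fusion cells, where it had 310.8 and 263.2 CPM against 358.0 and 356.3 CPM in untreated cells. Its log2 fold change was -0.20 without fusion library 2, and the call held under 8 of 16 settings.

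The next comparison set the fusion against unfused DamV133A, which asks what the lamin B1 moiety adds. 11 members were higher in fusion cells and 1 was lower, against 12.7% of all tested genes higher and 7.55% lower, and the median log2 fold change was 0.17 over the members and -0.02 over all genes. Higher were DDIT4 (0.53), CHAC1 (0.46), PYCR1 (0.39), CEBPB (0.36), ATF4 (0.34), PHGDH (0.32), SHMT2 (0.30), ASNS (0.27), PSAT1 (0.21), MTHFD2 (0.21) and SLC1A5 (0.17), with edgeR adjusted p from 0.018 to 0.0399. For PYCR1 the 2 fusion libraries, at 256.3 and 276.2 CPM, lay well above the DamV133A pair at 203.9 and 201.2 CPM. Of all tested genes 32% had both fusion libraries above the DamV133A pair. CHAC1 had 15.4 and 19.7 CPM in fusion cells and 13.3 and 12.3 CPM in DamV133A cells. SLC7A11 was lower, at 58.4 and 42.9 CPM in fusion cells against 65.0 and 71.2 CPM in DamV133A cells (log2 fold change -0.43 ± 0.13, adjusted p = 0.0489). All 12 calls were lost when any one DamV133A, m6A-Tracer or untreated library was left out, and in a fit of the 4 libraries of these groups alone. In each of these fits 1 gene of all tested was called, in place of 3598. Without fusion library 2, 17 members and 4366 genes of all passed, and without fusion library 1, 24 members and 8956 genes. Without fusion library 2 the log2 fold change was 0.27 for CHAC1, 0.20 for CEBPB, 0.23 for ATF4 and 0.20 for PHGDH. For SLC7A11 it was -0.22 without fusion library 2 and -0.65 without fusion library 1. With library totals in place of TMM scaling, 6 members were higher and 3 lower, and of all genes 1458 were higher and 2363 lower in place of 2258 and 1340.

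**Figure D3:**
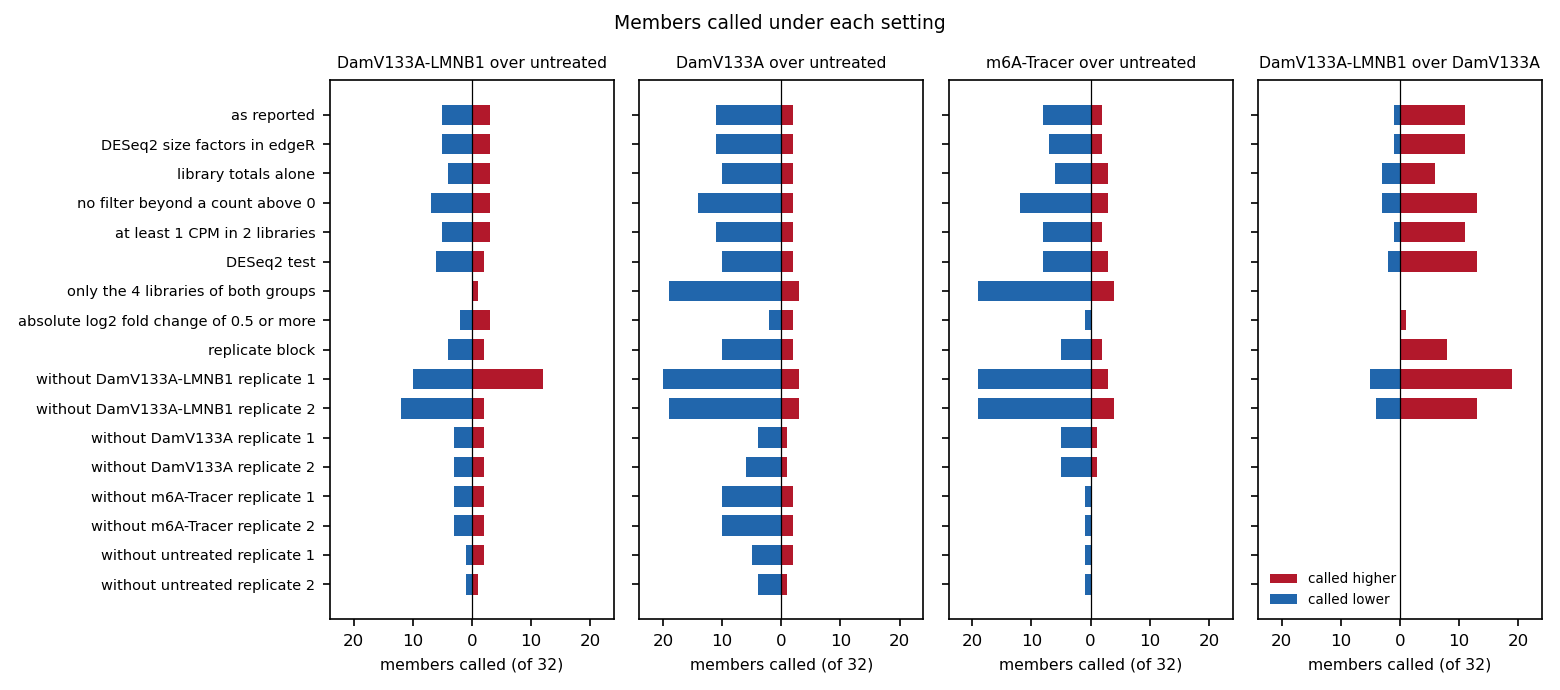
Number of the 32 members called higher (right of 0) and lower (left of 0) in 4 comparisons, as reported in the top bar and under 16 alternative settings below it. In the comparison of DamV133A-LMNB1 with DamV133A, the bar is empty in each of the 6 fits that leave out a library of another group than the fusion.

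m6A-Tracer, which carries no methylase, was used as the reference for the last pair. ATF3 was the 1 member called in fusion over m6A-Tracer cells, at 176.7 and 174.7 CPM in fusion cells and 137.8 and 134.8 CPM in m6A-Tracer cells (log2 fold change 0.37 ± 0.05, edgeR adjusted p = 0.0307), and it was lost under 9 of 16 alternatives. Of all tested genes 0.0564% were higher and 0.175% lower. 20 members and 5791 of all genes had an unadjusted p under 0.05. DESeq2 called 9 members higher and 3 lower, and 8.44% of all genes higher and 5.78% lower, so the count of 1 depends on the test. In DamV133A over m6A-Tracer cells edgeR called 0 members, with 5 at an unadjusted p under 0.05 and 0 by DESeq2, and 0.0507% of all genes were higher and 0.0733% lower. There the members' log2 fold changes ran from -0.37 (ATF5) to 0.23 (ATF3), with a median SE of 0.06.

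Genes around the pathway are given as counts against untreated cells, from lists of known function. Of all tested genes 11.4% rose and 7.56% fell in fusion cells, 13.6% rose and 13.1% fell in DamV133A cells, and 7.62% rose and 4.67% fell in m6A-Tracer cells. Of 18 genes of the eIF2 kinases, eIF2, its exchange factor and their regulators, 5 rose and 3 fell in fusion cells. In DamV133A cells 5 rose and 2 fell, and in m6A-Tracer cells 1 rose and 1 fell. Over the alternative settings 1 to 8 rose and 0 to 6 fell in fusion cells, 0 to 8 rose and 0 to 4 fell in DamV133A cells, and 0 to 6 rose and 0 to 6 fell in m6A-Tracer cells. EIF2B2, a subunit of the exchange factor eIF2B, had 72.7 and 77.1 CPM in fusion, 67.2 and 66.8 CPM in DamV133A, 62.8 and 63.9 CPM in m6A-Tracer and 49.5 and 51.7 CPM in untreated cells, and rose by 0.56, 0.40 and 0.32. EIF2AK4 (GCN2), the kinase that senses uncharged tRNA, fell by 0.47 in fusion cells. It had 75.1 and 59.1 CPM there, against 92.1 and 94.0 CPM in untreated cells. Its values of -0.24 in DamV133A and -0.18 in m6A-Tracer cells did not pass. EIF2AK3 (PERK), the kinase of the endoplasmic reticulum, rose by 0.29 in DamV133A cells.

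Other known targets of ATF4 or CHOP outside the 32 moved both ways. Of 32 such genes, 7 rose and 5 fell in fusion cells, 5 rose and 11 fell in DamV133A cells, and 5 rose and 7 fell in m6A-Tracer cells, with medians of -0.06, 0.03 and -0.01. Over the settings 2 to 11 rose and 0 to 11 fell in fusion cells, 3 to 9 rose and 6 to 14 fell in DamV133A cells, and 2 to 9 rose and 0 to 11 fell in m6A-Tracer cells. GDF15, a secreted stress cytokine that is also a p53 target, had 9.60 and 12.5 CPM in fusion cells, 9.70 and 10.1 CPM in DamV133A cells, 7.51 and 6.87 CPM in m6A-Tracer cells, and 1.53 and 1.59 CPM in untreated cells. It rose by 2.82 ± 0.16, 2.66 ± 0.16 and 2.20 ± 0.16, a larger change than that of any of the 32 members in the same comparison. RIOK3, a kinase, rose by 0.73, 0.91 and 0.51, INHBE, an activin subunit, rose by 0.81 in fusion and in DamV133A cells, and AKNA fell by 0.89, 0.89 and 0.68. Of 20 cytosolic aminoacyl-tRNA synthetases, 6 rose and 1 fell in fusion cells, 3 rose and 2 fell in DamV133A cells, and 1 rose and 1 fell in m6A-Tracer cells. Over the settings 0 to 11 rose and 0 to 3 fell in fusion cells, 0 to 7 rose and 0 to 8 fell in DamV133A cells, and 0 to 4 rose and 0 to 9 fell in m6A-Tracer cells. TARS1 and CARS1, which charge tRNA with threonine and cysteine, rose by 0.38 and 0.44 in fusion cells and by 0.39 and 0.40 in DamV133A cells. Of 20 other enzymes of amino acid and one-carbon metabolism, 2 rose and 3 fell in fusion cells, 2 rose and 7 fell in DamV133A cells, and 0 rose and 2 fell in m6A-Tracer cells. Over the settings 0 to 7 rose and 0 to 7 fell in fusion cells, 0 to 3 rose and 0 to 12 fell in DamV133A cells, and 0 to 2 rose and 0 to 9 fell in m6A-Tracer cells. AHCY, which hydrolyses S-adenosylhomocysteine, fell by 0.38 in DamV133A and 0.34 in m6A-Tracer cells, and was at 0.03 in fusion cells. In fusion cells GPT fell by 1.15, BCAT1 fell by 0.36 and ODC1 rose by 0.32. GPT was low, at 2.01 and 1.32 CPM in fusion cells and 4.05 and 3.41 CPM in untreated cells.

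Chaperones of the endoplasmic reticulum and targets of its IRE1 and ATF6 branches mostly fell where they passed. Of 20, 0 rose and 6 fell in fusion cells, 1 rose and 11 fell in DamV133A cells, and 0 rose and 8 fell in m6A-Tracer cells. In the same order 7.56%, 13.1% and 4.67% of all tested genes fell. HSPA5 (BiP), the main chaperone of the compartment, had 683.1 and 716.1 CPM in fusion cells, 653.6 and 666.3 CPM in DamV133A cells, 716.7 and 703.2 CPM in m6A-Tracer cells, and 998.2 and 1001 CPM in untreated cells. It fell by 0.52, 0.60 and 0.49, with edgeR adjusted p of 0.000562, 0.000162 and 0.000724. Across the alternative settings 1 to 12 of these genes fell in fusion, 1 to 13 in DamV133A and 0 to 14 in m6A-Tracer cells. Over the same settings 0 to 7 rose in fusion, 0 to 2 in DamV133A and 0 to 1 in m6A-Tracer cells.

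DamID from the same line placed the members relative to the lamina. The 4 bulk libraries, 2 of DamV133A-LMNB1 and 2 of DamV133A, held 402171358 to 524019579 coverage counts and were tested in bins of 100 kb (hg38), and each gene was placed by the midpoint of its RefSeq span. A bin that was higher with the fusion is called a LAD bin (lamina-associated domain) and a bin that was lower an iLAD bin. 1 of 32 members lay in a LAD bin and 26 in iLAD bins, against 35.2% LAD and 36.2% iLAD bins among the 27944 bins tested. Genes as a group are richer in iLAD bins: of 14543 genes tested in RNA and placed the same way, 8.41% lay in LAD and 70.3% in iLAD bins, and the members' share in iLAD bins was 81.2%. The median log2 fold change was -0.82 over the members' bins and -0.79 over those of all placed genes.

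SLC7A11 was the LAD member. Its bin, chr4:138200001-138300000, had 34314 and 36271 coverage counts with the fusion and 23172 and 26363 with DamV133A alone, a log2 fold change of 1.02 ± 0.16 (edgeR adjusted p = 8.76e-06), and the 10 bins around it, 5 on either side, were all LAD bins, at 0.62 to 1.47. It was the LAD member under each of 11 alternatives, at 0.76 to 1.09. RNA of 7 members, SLC7A11 among them, had a negative log2 fold change in fusion over DamV133A cells, and SLC7A11 was the 1 that passed. SLC7A1 (-0.32) and ALDH1L2 (-0.31), whose RNA was also lower there without passing, lay in iLAD bins. Bin and RNA values are given side by side without a test of their relation. SHMT2, in contrast, had the lowest bin, with 6959 and 5227 counts with the fusion against 19668 and 22872 with DamV133A alone (-1.30 ± 0.23, adjusted p = 4.68e-05). The bins of ASNS, PYCR1, CTH, SLC38A2 and VLDLR passed in neither direction. CTH lay next to a LAD bin, with 8 LAD bins among the 10 around it, and its own bin was at 0.18 ± 0.15. ATF4, at -0.94 ± 0.24, lay 22800 kb from the nearest LAD bin.

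In single cells, a bin was counted as in contact where its fragments reached the number expected from the summed bulk DamV133A libraries. Unfused DamV133A carries no lamin B1, so in cells with it the same count does not measure lamina contact. The members' bins were in contact in a mean of 15.2% of 15 cells of batch 1, which carried DamV133A-LMNB1 and m6A-Tracer, and in 15.0% of 36 cells of batch 2, which carried DamV133A-tdTomato-LMNB1 and m6A-Tracer-NES. The members' bins reached the expected number in a mean of 53.1% of 3 batch 1 cells with unfused DamV133A and m6A-Tracer. Over all tested bins the means were 34.9%, 39.6% and 37.3% in the same cells, over LAD bins 59.8%, 62.3% and 28.1%, and over iLAD bins, in which 26 of the 32 members lie, 14.3%, 17.2% and 48.5%. The members' means were thus near those of iLAD bins at large. Cells of a batch are not replicates of a condition and the batches used other constructs and library kits, so these are values without a test. Intervals in parentheses are exact binomial ones at 95%, the limit at 0 cells is 3 cells of the total, and both cover counting of cells only. SLC7A11 was in contact in 5 of 15 batch 1 cells (11.8% to 61.6%) and 13 of 36 batch 2 cells (20.8% to 53.8%). Its bin also reached the expected number in 2 of 3 cells with unfused DamV133A (9.43% to 99.2%). Its bin held a median of 5 fragments in batch 1. The ratio of observed to expected fragments in a cell had a median of 0.669 in batch 1 and 0.715 in batch 2. DDIT4 was in contact in 1 of 15 cells (0.169% to 31.9%) and in 0 of 36 cells, which allows a share of up to 8.33%. Its bin reached the expected number in all 3 cells with unfused DamV133A (29.2% to 100%). The bins of PSAT1, MTHFD1L and XPOT also reached it in all 3 of those cells. VLDLR and SLC38A2 had the highest shares in batch 2, with 17 of 36 (30.4% to 64.5%) and 16 of 36 cells (27.9% to 61.9%), and 2 of 15 (1.66% to 40.5%) and 4 of 15 cells (7.79% to 55.1%) in batch 1. With 9526 to 348793 fragments per cell in batch 1, a single bin of a cell holds few fragments, and the values are given with that limit.

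**Figure D4:**
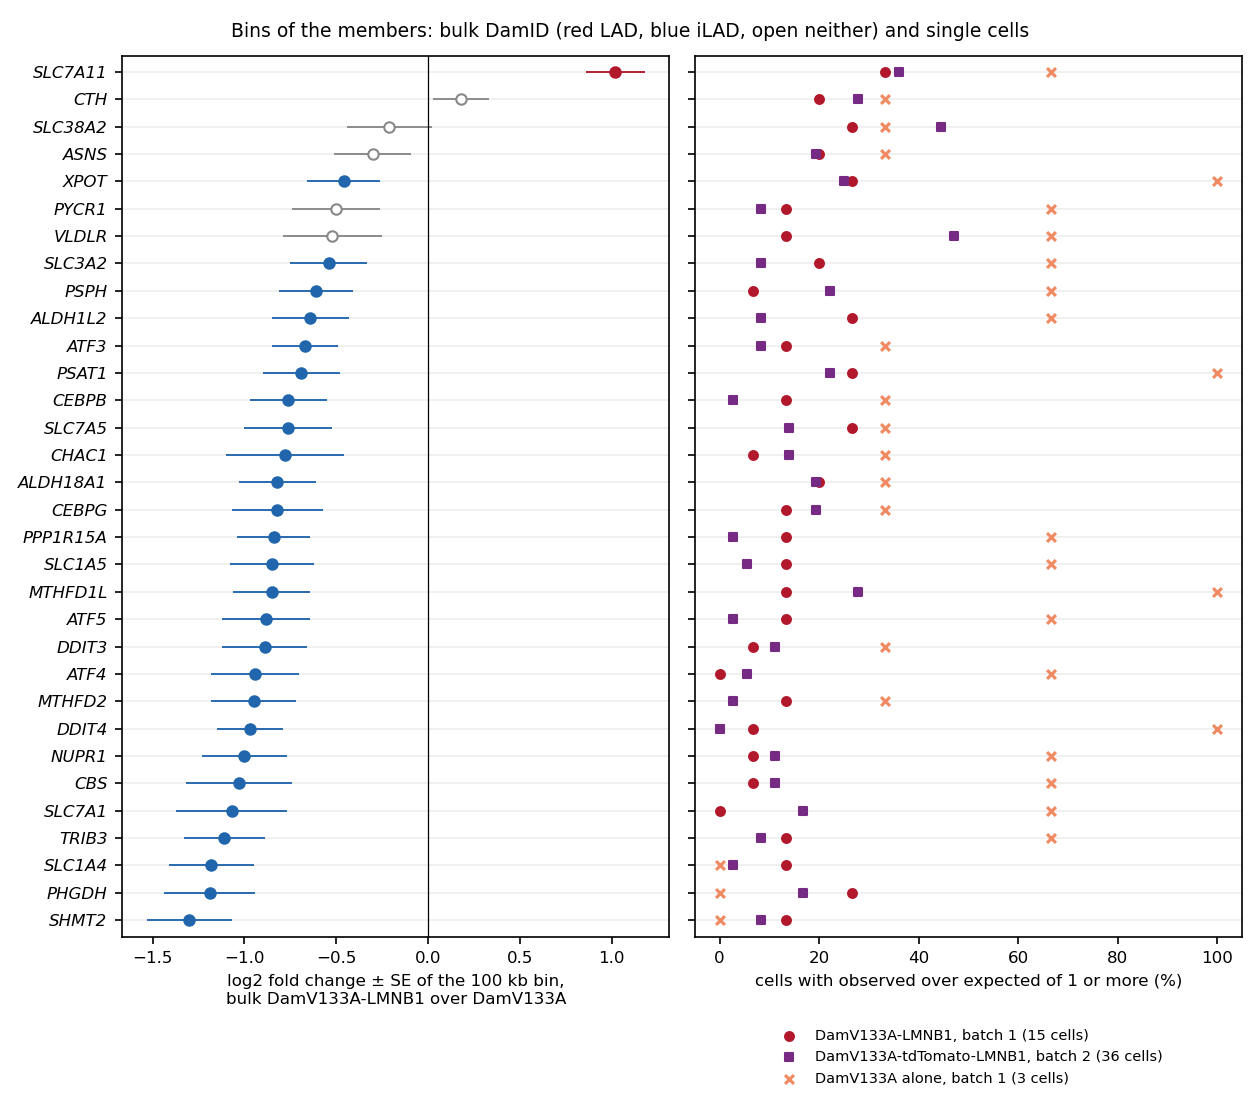
Left, log2 fold change ± SE of the 100 kb bin that holds each member in bulk DamID (edgeR, 2 libraries a group). Right, the percentage of single cells in which that bin reached the expected number of fragments, with SLC7A11 as the 1 LAD member at the top.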

How the data were processed

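Series labels mapped 74 samples to groups; the 8 RNA libraries, 4 bulk DamID libraries and 54 single cells were used, and the comparison of Dam variants was not. The deposited RNA table holds estimated counts of 39037 genes, which need not be whole and were rounded here. For DamID, the authors deposited whole-number counts per 100 kb bin, unique fragments for cells and coverage for bulk libraries. Salmon, DESeq2, limma, bedtools 2.28, SAMtools 1.9, BWA 0.7.15-r1140, Trimmomatic 0.39 and the build hg38 appear in the submitters' processing notes, without saying which tool made which file. Whether RNA counting used strand was not stated. The labels' protocols describe the single-cell libraries, and the RNA library preparation is not given in them.

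The test was edgeR 4.0.16 under R 4.3.3 (filterByExpr, TMM, glmQLFit, glmQLFTest, Benjamini-Hochberg over all 17740 genes or 27944 bins, threshold 0.05), in 1 fit of 8 RNA libraries or of 4 bulk libraries. DESeq2 1.42.0 was an alternative. The fits were checked on simulated data. Fold changes are log2, the first named group over the second. The text names all 32 members, LMNB1, copies of members, and up to 4 called genes of each other list, with EIF2AK3 added after its values were seen. The members and lists were chosen with earlier results of these data known. Where a listed symbol had several identifiers, the one with the most counts was used. In same-numbered RNA libraries, deviations from the group means correlated at -0.05 to 0.02 over genes, so numbers were not taken as pairs. Cells were thinned to 10000 fragments as an alternative, with NumPy 2.4.6 and pandas 2.3.3 in Python 3.11.15. No 2 RNA columns were identical. The value of 1 marker gene is not reported here.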

Additional observations from a re-analysis of the deposited data

How the results depend on the processing

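Each RNA comparison was refitted under 16 alternatives. None of the 44 member calls changed sign, and 5 held in all 16: DDIT4 in DamV133A and m6A-Tracer cells, SLC3A2 in fusion and DamV133A cells, and VLDLR in DamV133A cells, each over untreated cells. All 44 held without fusion library 1 and 42 without fusion library 2, but 8 held without untreated library 2. Leaving out 1 library gave 2 to 22 members called in fusion, 5 to 23 in DamV133A and 1 to 23 in m6A-Tracer over untreated cells, 0 to 24 in fusion and 0 to 11 in DamV133A over m6A-Tracer cells, and 0 to 24 in fusion over DamV133A cells. In that order of comparisons, the 4 libraries of both groups alone gave 1, 22, 23, 0, 8 and 0 members, and an absolute log2 fold change of 0.5 or more gave 5, 4, 1, 0, 0 and 1. For fusion over m6A-Tracer cells, no filter gave 15 members (4175 of all genes), DESeq2 12 (2523) and the replicate block 0 (9), against 1 (41) as reported. The replicate block gave 6, 12, 7, 0, 0 and 8; the numbers share no stated origin, and the block is a hint only. Where 1 library was left out, the lone library of its group is assumed to vary like the other groups. The cause of these shifts was not tested. With library totals alone, the median of all genes was 0.10 in DamV133A over untreated cells, with 3470 genes higher and 1419 lower in place of 2408 and 2322, and in m6A-Tracer over untreated cells 2001 were higher and 501 lower in place of 1352 and 829. ALDH18A1 and PSAT1 in DamV133A over untreated cells were then at -0.08 and -0.17, PSAT1 in m6A-Tracer over untreated cells at -0.12, and MTHFD2, PSAT1 and SLC1A5 in fusion over DamV133A cells at 0.13, 0.13 and 0.09. In bulk DamID, SLC7A11 was the 1 LAD member in every alternative, and 17 to 29 members lay in iLAD bins, with 18 without DamV133A library 1 and 17 without DamV133A library 2. At an observed over expected of 2, contact of member bins was 3.96% in batch 1 and 3.47% in batch 2, and it was 14.7% in 14 and 17.4% in 36 cells thinned to 10000 fragments. In the 3 cells with unfused DamV133A the same share, which does not measure contact there, was 19.8% and 39.6%, against 53.1% as reported. With 2 libraries a group, small changes of low genes such as NUPR1 were not resolved.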

Other observations

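Genes of 3 other programs were followed in the same libraries, from lists that overlap in part with the ATF4 and CHOP targets (GADD45A, SESN2 and TNFRSF10B among the p53 targets, JUN among the immediate early genes). Of 12 targets of p53, the tumour suppressor that large T antigen binds in this line, 9 rose and 0 fell in each of fusion, DamV133A and m6A-Tracer cells over untreated cells, in which 11.4%, 13.6% and 7.62% of all genes rose. FDXR, a mitochondrial reductase, had 55.2 and 73.0 CPM in fusion cells, 52.4 and 54.1 CPM in DamV133A cells, 51.5 and 49.1 CPM in m6A-Tracer cells, and 31.6 and 32.7 CPM in untreated cells. It rose by 1.00, 0.73 and 0.65 on the log2 scale, and TP53I3 rose by 0.78, 0.75 and 0.80. Over the alternative settings the count that rose ran from 2 to 10 in fusion, 6 to 11 in DamV133A and 1 to 11 in m6A-Tracer cells. The median over the 12 genes was 0.36, 0.50 and 0.36.

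Of 12 genes of AP-1 and the immediate early response, 1 rose and 6 fell in fusion cells, 1 rose and 5 fell in DamV133A cells, and 1 rose and 5 fell in m6A-Tracer cells. In the same order, 7.56%, 13.1% and 4.67% of all tested genes fell, and 11.4%, 13.6% and 7.62% rose. Over the settings 0 to 4 rose and 1 to 6 fell in fusion cells, 1 to 3 rose and 4 to 5 fell in DamV133A cells, and 1 rose and 1 to 6 fell in m6A-Tracer cells. FOS had 11.6 and 11.3 CPM in fusion cells, 12.7 and 12.0 CPM in DamV133A cells, 11.6 and 12.5 CPM in m6A-Tracer cells, and 19.5 and 19.0 CPM in untreated cells, and fell by 0.75, 0.64 and 0.68. JUNB fell by 0.41, 0.70 and 0.56. FOSL1 was the gene that rose, by 0.99, 1.21 and 1.20. Of 11 interferon-stimulated genes, 2 rose in fusion cells, 1 in DamV133A cells and 1 in m6A-Tracer cells, and 0 fell. These counts stand beside 11.4%, 13.6% and 7.62% of all genes that rose. Over the settings 0 to 3 rose in fusion cells, 1 to 2 in DamV133A cells and 0 to 2 in m6A-Tracer cells. DDX58 (RIG-I), a sensor of viral RNA, rose by 0.65, 0.86 and 0.53, and had 4.69 and 4.39 CPM in untreated cells.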
